A study of Drosophila melanogaster with 3 samples.

Results

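Myc peaks on the left arms of chromosomes 2 and 3 (2L and 3L) were analysed here, from a chromatin immunoprecipitation and sequencing (ChIP-seq) experiment on S2-DRSC cells, which come from late Drosophila melanogaster embryos and are male. The series holds 2 ChIP libraries made with the rabbit polyclonal antibody MycN, raised against fly Myc, and 1 library of input DNA. No treatment, genotype or transgene is given for the cells. Members were every peak on the assembled sequences 2L and 3L, except the 2L peaks lying wholly between 21.4 and 21.55 Mb, the histone gene repeat. The rule used position and no measured value. It kept 321 of the 1355 peaks in the list, 134 on 2L and 187 on 3L, and left out 39 peaks of the repeat.

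Myc, the product of the gene dm (diminutive), is a transcription factor that pairs with Max and binds E-box sequences, typically near the starts of active genes. In flies it is best known for driving cell growth through genes of ribosome production and metabolism. In the release 5 assembly, bases of 2L and 3L are counted from the telomere, the capped tip of the arm, toward the centromere, and the part nearest the centromere passes into repeat-rich heterochromatin. The histone genes lie in a tandem repeat on 2L, where near-identical copies share reads.

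For each peak the list holds its bounds and a score from the authors' peak caller. Which statistic the score is was not stated. The list merges all libraries, so the spread between the ChIP replicates and the depth of each library are unknown and no test between replicates was possible. Intervals below are exact 95% intervals for counting error: Clopper-Pearson for shares and number ratios, Poisson for densities, and order statistics for medians. They treat peaks as independent, although peaks lay in groups. No genome or annotation of release 5 was used here, so peaks are named by position, with no gene and no sequence.

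The members covered 135731 bp in all. Their median width was 347 bp (324 to 374), with quartiles of 260 and 504 bp and a range from 201 to 2208 bp. The median score was 12.35 (11.92 to 13.15), with quartiles of 9.68 and 15.9 and a range from 6.15 to 61.0. On 2L the first peak, at bases 120760 to 121078, scored 12.96, and the last, at bases 22282352 to 22282917, scored 17.88. On 3L the first, at bases 128410 to 128928, scored 21.87, and the last, at bases 24463597 to 24464004, scored 10.21. Each arm was cut from base 1 to the end of its last peak into 3 segments of equal length, 7.43 Mb each on 2L and 8.15 Mb each on 3L.

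Peaks were most numerous toward the telomere on both arms, and on 3L the middle was nearly empty. The telomere-side segment of 2L held 60 peaks, or 44.8% of the arm's members (36.2 to 53.6%). The middle segment of 2L held 36, or 26.9% (19.6 to 35.2%), and the centromere-side segment 38, or 28.4% (20.9 to 36.8%). On 3L the telomere-side segment held 118 peaks, or 63.1% (55.8 to 70.0%). The middle segment of 3L held 13, or 6.95% (3.75 to 11.6%), and the centromere-side segment 56, or 29.9% (23.5 to 37.1%).

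Expressed per length, the arms differed most in the telomere-side and middle segments. The telomere-side segment held 8.08 peaks per Mb on 2L (6.16 to 10.4) and 14.5 on 3L (12.0 to 17.3). In the middle segment the order was the other way round, with 4.85 per Mb on 2L (3.39 to 6.71) and 1.59 on 3L (0.849 to 2.73). The intervals of the arms did not overlap in either of these segments. In the centromere-side segment they did, with 5.12 per Mb on 2L (3.62 to 7.02) and 6.87 on 3L (5.19 to 8.92).

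**Figure D1:**
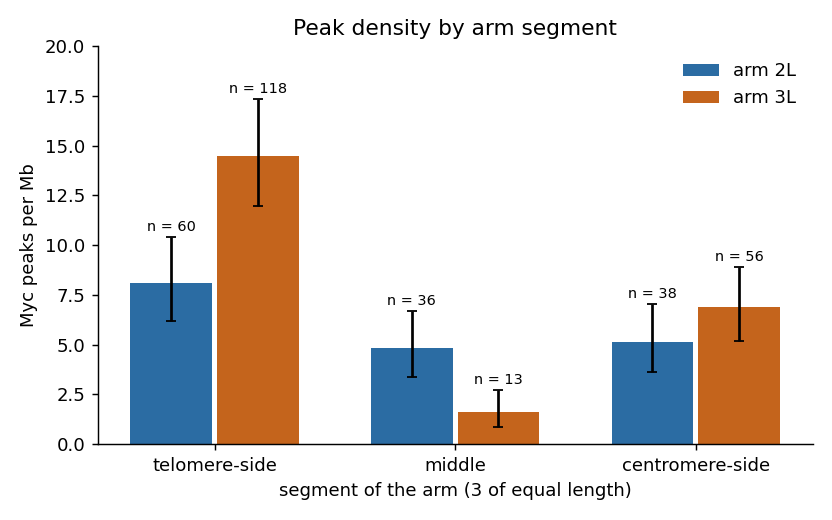
Myc peaks per Mb (vertical axis) in the 3 equal-length segments of arms 2L (blue) and 3L (orange), without the histone gene repeat. Bars give the density, error bars the exact 95% Poisson interval, and n the number of peaks. The telomere-side bar is the tallest on each arm, and the 3L middle segment, with 13 peaks, is the lowest of all.

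As ratios of peak numbers, 2L held 1.58 times as many peaks in its telomere-side as in its centromere-side segment (1.03 to 2.44), and 3L held 2.11 times as many (1.52 to 2.95). Against the middle, the telomere-side segment held 1.67 times as many peaks on 2L (1.08 to 2.59) and 9.08 times as many on 3L (5.11 to 17.6). The centromere-side segment held 1.06 times as many as the middle on 2L (0.651 to 1.71) and 4.31 times on 3L (2.33 to 8.59). The 2L excess lay in the part nearest the telomere. Its 1 Mb bins held 29, 12 and 14 peaks up to 3 Mb, then 1, 1, 3 and 0 up to 7 Mb. Beyond the first 1 Mb, the telomere-side segment of 2L held 31 peaks, or 4.82 per Mb (3.28 to 6.85). That average, over a dense and a nearly empty stretch, was close to the 4.85 and 5.12 per Mb of its other segments. The first 1 Mb of 3L held 30 peaks, but the other 88 telomere-side peaks still gave 12.3 per Mb (9.86 to 15.2). Leaving the first 1 Mb out, the ratio of numbers on 2L was 0.816 (0.491 to 1.35), with a telomere-side segment then shorter by 1 Mb, and with the histone gene repeat kept it was 0.779 (0.547 to 1.11). Both intervals included 1. When each group of peaks within 15000 bp was counted as 1, the ratio was 1.23 on 2L (0.711 to 2.15), an interval that included 1, and 1.63 on 3L (1.10 to 2.44), an interval that did not.

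Cutting each arm into 10 equal parts showed the densest part at the telomere on both arms and a smaller rise toward the last peak on the centromere side. The last part of each arm ended on a peak by construction. No other end was tried, so the count of that part depends on the cut. The part of 2L nearest the telomere held 48 peaks and the part nearest the centromere 25, together 54.5% of the arm's members (45.7 to 63.1%). Between them, each part of 2L held from 4 to 18 peaks, with the 18 just past the middle of the arm. The end parts of 3L held 52 and 24 peaks, together 40.6% (33.5 to 48.1%). From the telomere inward, the counts on 3L were 52, 43, 18 and 9, then 0 between 40 and 50% of the length, and from there 5, 11, 7, 18 and 24. The fall from the telomere was thus abrupt on 2L, where the next part held 8, and gradual on 3L.

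**Figure D2:**
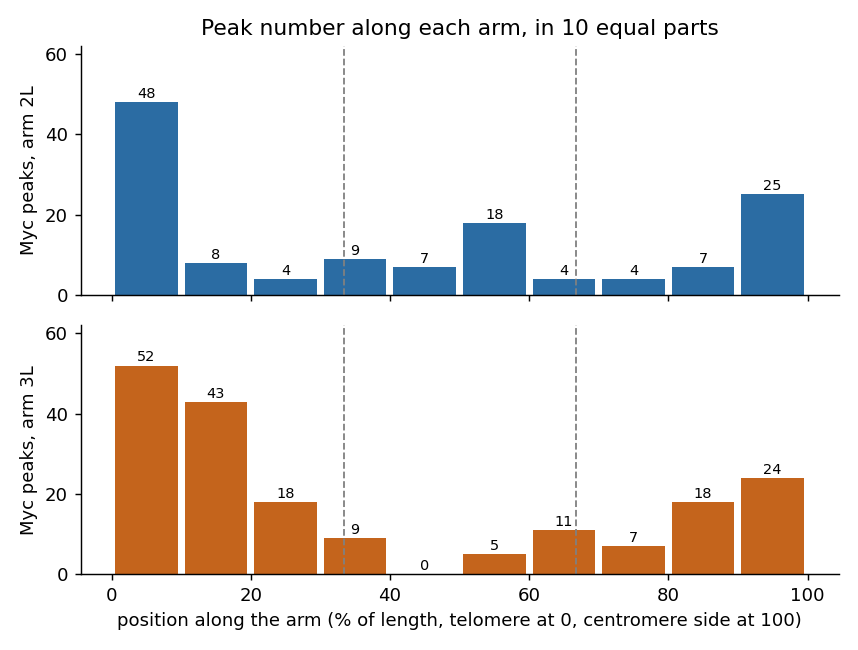
Number of Myc peaks (vertical axes) in 10 equal parts of 2L (top) and 3L (bottom), against position in percent of the arm length from the telomere. Dashed lines mark the 3 segments. Both arms are highest at the telomere, with 48 and 52 peaks, and rise again at the centromere side, to 25 and 24. The last part of each arm ends at its last peak.

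In 1 Mb bins the same concentration appeared. The 5 densest bins of 2L held 78 peaks, or 58.2% of its members, and those of 3L held 106, or 56.7%. Of the fully covered bins, 2 of 22 on 2L and 7 of 24 on 3L held no peak. The median was 3 peaks per bin on 2L and 5 on 3L.

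The 3 longest stretches without a peak on each arm lay away from the arm ends. On 3L no peak lay in the 3.81 Mb between base 8685986 and base 12497388, the facing edges of peaks scoring 12.51 and 8.19. Another 2.15 Mb of 3L was empty from base 12954924 to base 15100492, and 1.45 Mb from base 17605646 to base 19055889. On 2L the longest empty stretches measured 2.07 Mb, from base 13378961 to base 15446166, and 2.01 Mb, from base 5907677 to base 7914904. A further 1.73 Mb of 2L was empty from base 3252893 to base 4981203. Cut at the 3.81 and 2.15 Mb stretches and at the 936456 bases before base 16037167, the 13 peaks of the 3L middle segment formed 3 islands and a lone peak. The islands were 4 peaks from base 8491511 to base 8685986, 5 from base 12497388 to base 12954924, and 3 from base 16037167 to base 16045572. The lone peak started at base 15100492. Within the islands of 4 and 5 peaks, gaps of 183032 and 308179 bases remained.

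Peak scores differed far less between segments than peak numbers did. The median score on 2L was 12.9 in the telomere-side segment (11.13 to 14.91), 12.6 in the middle (10.37 to 14.82) and 14.0 in the centromere-side segment (12.32 to 17.55). On 3L the medians were 12.0 (11.06 to 12.85), 12.5 (8.53 to 16.67) and 11.5 (10.48 to 13.99). All 6 intervals overlapped one another. Over whole arms the median was 13.0 on 2L (12.32 to 14.56) and 12.0 on 3L (11.13 to 12.81), again with overlapping intervals.

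Widths overlapped as well. The median width on 2L was 387 bp in the telomere-side segment (329 to 487), 369 bp in the middle (297 to 471) and 328.5 bp in the centromere-side segment (274 to 417). On 3L the medians were 327.5 bp (297 to 364), 275 bp (219 to 435) and 362.5 bp (285 to 432). Their intervals overlapped throughout. The widest peak of the 3L middle segment measured 479 bp, whereas the other 5 segments each held a peak of at least 929 bp, though this segment had the fewest peaks.

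**Figure D3:**
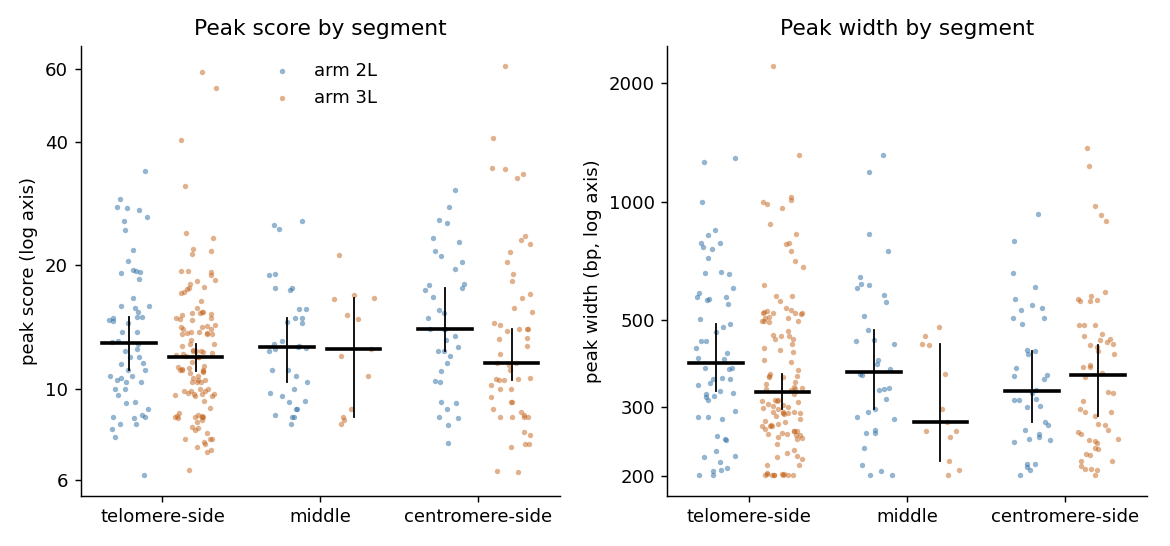
Score (left, log axis) and width in bp (right, log axis) of each of the 321 peaks by segment, for 2L (blue) and 3L (orange). Points are peaks, thick bars medians and thin vertical lines their exact 95% intervals, which overlap across all segments. The highest scores, from 53.96 to 61.0, lie in the outer segments of 3L.

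The highest scores lay on 3L, near both of its ends. Among the members 12 scored 30 or more, 10 of them on 3L and 2 on 2L, and the 5 scoring 40 or more were all on 3L. For comparison, 3L held 187 of the 321 members. The cut-offs of 30 and 40 were not among the planned measures. The highest, 61.0, belonged to the peak at bases 24457228 to 24458119, the 21st highest of the 1355 peaks. It stood in a group of 4 whose other members scored 10.64, 8.75 and 10.21. Separated from that group by 23140 bases on the telomere side, the peak at bases 24433224 to 24433709 scored 40.76 beside a neighbour with 17.02. The other high pair lay at the telomere side, at bases 505771 to 506293 with 59.27 and at bases 748559 to 749869 with 53.96. Both of these stood alone, with no other midpoint within 15000 bp. The remaining member above 40, at bases 3418028 to 3418991, scored 40.40.

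On 2L the tops of the segments were closer together. The highest telomere-side peak, at bases 489995 to 490371, scored 33.82, and the next, at bases 3252071 to 3252893, scored 28.93. In the middle segment the highest lay at bases 8423612 to 8424165 with 25.64 and at bases 7914904 to 7915345 with 25.00. In the centromere-side segment they lay at bases 21168256 to 21168799 with 30.54 and at bases 22260946 to 22261552 with 27.72. In the 3L middle segment the top was lower still, with 21.15 at bases 12507806 to 12508260 and 16.87 at bases 8491511 to 8491874. Of the members in the top 10% by score, 15 were telomere-side, 3 middle and 15 centromere-side. These were 8.43% of the telomere-side (4.79 to 13.5%), 6.12% of the middle (1.28 to 16.9%) and 16.0% of the centromere-side peaks (9.22 to 25.0%), shares whose intervals overlapped. By arm, the telomere-side, middle and centromere-side numbers were 8, 3 and 6 on 2L and 7, 0 and 9 on 3L. At this cut-off, a score of 21.87, 3L thus held no lead over 2L.

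Wider peaks tended to score higher, with exceptions among the widest. Over all members Spearman's rho between width and score was 0.597 (321 peaks from the same libraries, as a description). It was 0.490 on 2L and 0.646 on 3L, and 0.608 over the 619 peaks of 2R, 3R and X. Among members scoring at or above their median it was 0.0943 on 2L and 0.535 on 3L. The shortest width, 201 bp, was shared by 14 peaks, 5 on 2L and 9 on 3L, whose scores ran from 6.25 to 10.51. At the other end, 10 peaks were 1000 bp wide or more, 4 on 2L and 6 on 3L. The widest, 2208 bp at bases 652652 to 654859 of 3L, scored only 14.80, whereas the second highest score, 59.27, came from a peak of 523 bp. On 2L the widest peaks of the segments lay at bases 1157812 to 1159099 (1288 bp, score 25.57), at bases 12011222 to 12012533 (1312 bp, score 12.51) and at bases 16287585 to 16288513 (929 bp, score 15.29). In the centromere-side segment of 3L, the widest was the peak at bases 22864054 to 22865418 (1365 bp, score 20.39).

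**Figure D4:**
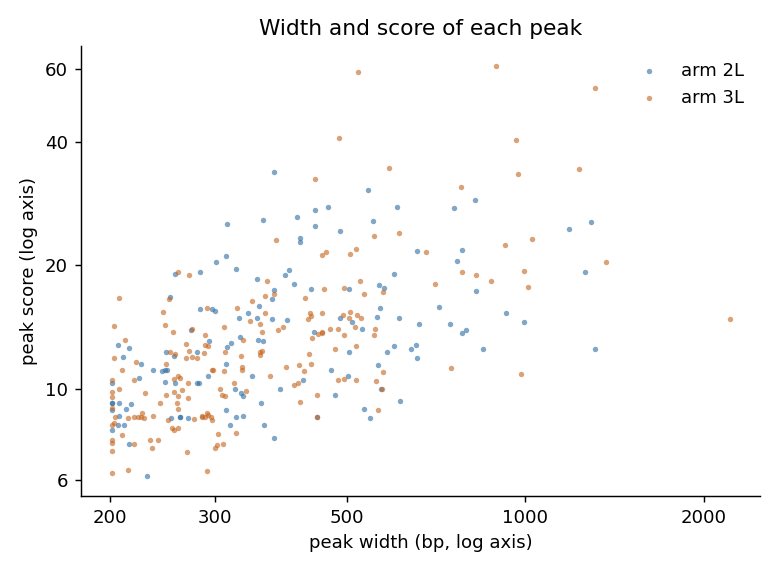
Width in bp (horizontal, log axis) against score (vertical, log axis) of each member on 2L (blue) and 3L (orange). Scores tend to be higher for wider peaks (Spearman's rho 0.597 over 321 peaks), while the widest peak, at 2208 bp, has a score of 14.80.

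Over all members, the median distance between neighbours was shortest on the telomere side of each arm. Counting neighbours within a segment, the median distance between midpoints on 2L was 15705.5 bp in the telomere-side segment (6909 to 33308), 33516.5 bp in the middle (6830.5 to 145695) and 29514.5 bp in the centromere-side segment (18556.5 to 139619). On 3L the medians were 23770 bp (13949.5 to 35136), 69187.75 bp in the middle (5443.5 to 936714, from 12 distances) and 49141 bp (25104.5 to 99898.5). Within each arm the intervals overlapped between segments. Among peaks scoring at or above the members' median the order on 2L turned, with 33308 bp on the telomere side and 29342 bp on the centromere side. Because distances varied over orders of magnitude, these medians were far less precise than the counts. The centromere-side segments had the longest lower quartiles, 6999.5 bp on 2L and 16323 bp on 3L, against 3898 and 5101 bp on the telomere side.

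Close neighbours occurred in every segment except the middle of 3L, which had 12 distances. Of 319 neighbouring pairs, 35 (11.0%) had fewer than 1000 bases between them, and the closest had 53. On the telomere side there were 22 such pairs, or 12.5% of the 176 within those segments, in the middle 5 of 47 (10.6%), all on 2L, and on the centromere side 8 of 92 (8.70%). By arm, the shares in that order were 18.6, 14.3 and 8.11% on 2L, and 9.40, 0 and 9.09% on 3L. The fall was thus on 2L, whereas the outer segments of 3L were alike. A pair on each arm was of equal width: at bases 273400 to 273752 and 273835 to 274187 of 2L both peaks measured 353 bp, and at bases 4040094 to 4040382 and 4040450 to 4040738 of 3L both measured 289 bp. Where peaks lie this close, the list does not show whether they are separate binding sites or parts of a single enriched stretch.

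Peaks were grouped where midpoints lay no more than 15000 bp from the next, which gave 200 groups, 129 of them single peaks. Single peaks made up 35.4% of telomere-side members (28.4 to 42.9%), 34.7% of the middle (21.7 to 49.6%) and 52.1% of the centromere side (41.6 to 62.5%). The centromere side thus had the largest share of single peaks, although its interval overlapped both others. Runs of 5 or more peaks numbered 7, with 45 peaks in all. Of these runs 6 lay in telomere-side segments, 1 in the middle of 2L and none on the centromere side, where the largest group held 4 peaks. Telomere-side segments held 55.5% of all members, at 11.4 peaks per Mb against 6.03 on the centromere side. A fixed limit of 15000 bp joins peaks more readily where they are denser.

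The runs differed in make-up. The largest, 9 peaks from base 626154 to base 654859 of 3L, had a median width of 779 bp and scores from 11.24 to 31.09, and its last peak was the widest member. The run of 7 peaks from base 478794 to base 490371 of 2L had scores from 11.45 to 33.82, with the highest score of the arm at its inner end. A run of the same size from base 3046612 to base 3072463 of 3L was of another kind, with widths from 225 to 306 bp and 5 of its 7 scores below 9, between 7.78 and 8.63. Its 2 other peaks scored 9.99 and 19.32.

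The 4 remaining runs were smaller. On 2L, 6 peaks from base 2747707 to base 2765891 scored from 6.15, the lowest of all members, to 24.29. Another 6, from base 12003104 to base 12012533, filled 9430 bp in the middle segment, with a median width of 694 bp and scores from 8.94 to 24.47. Nearest the telomere of 2L, 5 peaks from base 142998 to base 167020 scored from 8.60 to 27.61. On 3L, 5 peaks from base 833190 to base 872409 scored from 8.56 to 19.27.

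Peaks in runs of 5 or more had a median width of 478 bp (329 to 641) and a median score of 14.56 (11.92 to 15.88). Single peaks had a median width of 327 bp (300 to 359) and a median score of 11.92 (10.75 to 12.73), and peaks in groups of 2 to 4 had medians of 353 bp (311 to 394) and 12.51 (11.43 to 13.99). The values were highest in the runs, but the intervals overlapped in both measures.

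Among distances between neighbours, a class around 6.9 kb stood out, most clearly on 2L, and its peaks scored high. Of the 319 distances, 14 lay between 6500 and 7000 bp, against 5 in the class of 500 bp below and 3 in the class above. On 2L these counts were 9, against 3 and 0, and on 3L 5, against 2 and 3. The largest class, from 500 to 1000 bp, held 19 pairs. Of these 14 pairs 12 lay between 6800 and 7000 bp, 9 of them on 2L and 3 on 3L. The class was chosen after its count had been seen. On the arms 2R, 3R and X, which took no part in that choice, 3, 10 and 1 pairs fell in the same class, and the classes below and above held 2 and 1 pairs on 2R, 2 and 3 on 3R, and 1 and 1 on X. The class thus stood out on 3R, whereas on 2R and X it held about as many pairs as its neighbours.

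The pairs were spread over the arms. On 2L 2 lay in the telomere-side, 3 in the middle and 4 in the centromere-side segment, and on 3L the numbers were 2, 1 and 2. In the telomere-side segment of 2L, the peaks at bases 347975 to 348374 and 354863 to 355304 scored 19.46 and 27.32, and those at bases 1220263 to 1220545 and 1227164 to 1227575 scored 19.32 and 26.21. In the centromere-side segment, peaks at bases 20303229 to 20303541 and 20310204 to 20310565 scored 21.04 and 25.72, and the pair nearest the histone gene repeat, at bases 21347683 to 21348090 and 21354578 to 21354994, scored 18.02 and 22.74. Scores in the pairs ran from 13.08 to 27.32 on 2L and were lower on 3L, from 8.46 to 21.61. Of the 28 peaks, 26 stood in a group of exactly 2, so most pairs had no further peak nearby.

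The 28 peaks of these pairs had a median score of 18.5 (15.41 to 19.55), against 12.0 (11.14 to 12.60) for the other 293 members. The intervals did not overlap, and 25 of the 28 scored above the members' median. Those below it scored 8.46, 12.16 and 12.22 and were all on 3L. The arms were unequally represented, with 18 of the 28 peaks on 2L and 10 on 3L. Members outside the pairs had a median score of 12.4 on 2L (11.13 to 13.42) and 11.6 on 3L (10.9 to 12.73). Widths did not separate them, with medians of 363 bp (288 to 412) and 344 bp (319 to 374). Members standing in groups of 2 at other distances had a median score of 12.2 (11.06 to 13.96), an interval that did not reach that of the 28 peaks. On 2R, 3R and X the 28 peaks at this distance had a median score of 15.9 (12.58 to 19.67), against 11.3 (11.04 to 11.70) for the other 591, again without overlap. Both peaks of a pair share their surroundings, which the intervals ignore. Whether the pairs lie in repeated sequence was not tested.

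**Figure D5:**
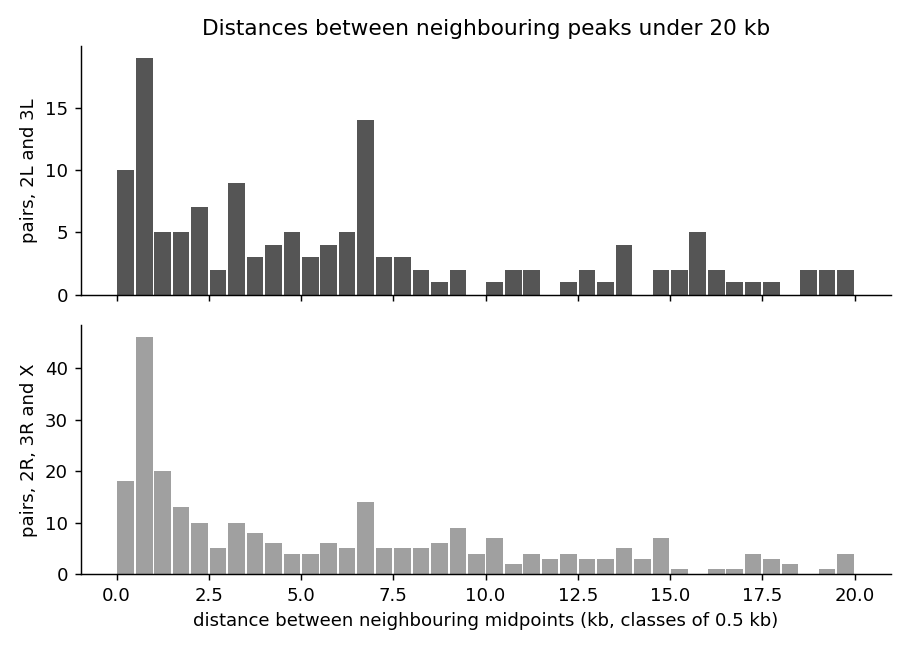
Number of neighbouring pairs (vertical axes) by distance between midpoints in kb, in classes of 0.5 kb up to 20 kb, for the members on 2L and 3L (top) and for the peaks of 2R, 3R and X (bottom). On 2L and 3L together the class from 6.5 to 7 kb holds 14 pairs, 9 of them on 2L, against 5 and 3 in the classes beside it.

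A second search asked for start-to-start distances under 20000 bp that recurred elsewhere on the 2 arms within 5 bp. Of 139 such distances 28 had another alike, and at most 3 were alike, the distance itself included. On 3L the peaks starting at bases 837137, 851086 and 865036 followed each other at 13949 and 13950 bp, and the next began 6854 bp further on. The same 6854 bp separated the peaks at bases 12933971 and 12940825 of 2L.

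Other arms, cut the same way, showed that a dense telomere side was not shared by all. The telomere-side segment held 55.4% of the peaks on 3R (49.5 to 61.3%) and 45.0% on X (35.6 to 54.8%), but 20.6% on 2R (15.5 to 26.5%), where the centromere-side segment held 43.5% (36.9 to 50.3%). The 3L middle segment, with 6.95% of its arm, held a smaller share than any segment of these 3 arms, of which the lowest was 17.9% on the centromere side of 3R (13.6 to 22.8%), and the intervals of these shares did not overlap. In width the members and the peaks of 2R, 3R and X had medians of 347 and 345 bp (328 to 364 on the other arms). In score the medians were 12.35 and 11.5 (11.13 to 11.92 on the other arms), and the intervals touched. S2 lines carry extra and uneven chromosome copies, and in these counts copy number and binding cannot be told apart.

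The 39 peaks left out as the histone gene repeat, from base 21418367 to base 21541295, had a median width of 530 bp (357 to 724) and a median score of 14.2 (12.01 to 20.34). The nearest members stood well apart from them. The last before the repeat, at bases 21354578 to 21354994, scored 22.74 and ended 63372 bp short of it. The first after it, at bases 21629232 to 21629562, scored 13.42 and began 87936 bp beyond. With the repeat kept, the median distance in the centromere-side segment of 2L was 5087.75 bp in place of 29514.5 bp.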

How the data were processed

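Positions and a score were used from a single deposited peak list. The submitters' processing notes name CASAVA (1.7.0.2, 1.7.0.3), BWA and MACS2 as tools and BDGP5 as the build, and the file names MACS as the source of each peak. Coordinates are FlyBase release 5, 1-based, per the file headers. The score was deposited by the authors without a name or log base, and was used to describe and rank peaks within the list. Not given in the sources used here are the peak threshold, how the ChIP and input libraries were combined, and how duplicate reads or reads with several matches were handled, any of which can add, drop or split peaks, most of all in repeated sequence.

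Peaks were assigned to segments by midpoint. The release 5 arm lengths were not used here, so each arm ended at its last peak. Intervals were computed with scipy 1.17.1 in Python 3.11.15. Those of shares and median scores were tested on simulated peaks placed independently, without the grouping seen here. The intervals of ratios and densities were not tested in this way. No p-value was computed, since the 1 list names no replicate. Peaks named were the 2 highest-scored and the widest of each segment, the first and last of each arm, the 3 longest gaps of each arm, runs of 5 or more, and pairs at recurring distances. Peaks scoring 40 or more, equal-width pairs and the class near 6.9 kb were named after their values were seen. Members, segments and measures were chosen with earlier results of these data known. A gene table of release 6 was not used.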

Additional observations from a re-analysis of the deposited data

How the results depend on the processing

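Of 160 recomputed values, 138 stayed within the interval of the reported value (counts within 1.5 times). This count is a weak measure of stability, since some values could not change. Keeping the histone gene repeat could not alter 3L, nor the medians in the telomere-side and middle segments of 2L. With each arm cut from its first peak in place of base 1, all 26 values equalled those reported. No setting moved the other end of the arms, the last peak. The ratio of telomere-side to centromere-side peaks on 2L fell below 1 in 2 settings, with intervals that included 1. It was 0.779 (0.547 to 1.11) with the repeat kept and 0.816 (0.491 to 1.35) without the first 1 Mb, which shortens the telomere-side segment. The telomere-side share of 2L then was 34.7% and 29.5%, and with the repeat kept its centromere-side share was 44.5% and its median spacing there 5087.75 bp. With peaks within 1000 bp merged the ratio was 1.40 on 2L (0.889 to 2.23), and among scores at or above the median 1.33 (0.761 to 2.37), so both intervals included 1. On 3L the ratio ran from 1.57 to 2.19 over the settings tried.

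Restricting the list to scores at or above the members' median raised median scores by construction. They became 16.25, 15.3 and 17.7 along 2L and 15.3 and 17.7 in the telomere-side and centromere-side segments of 3L. Median widths became 476.5 bp in the 2L middle and 500 and 440.5 bp in the outer segments of 3L, and the telomere-side spacing of 3L 49489.5 bp. Median spacing on 2L was then 33308 bp on the telomere side and 29342 bp on the centromere side, the other order than in the full list. In this restricted list rho between width and score was 0.0943 on 2L and 0.535 on 3L, and the cause was not tested. With 30000 bp allowed between neighbours each arm had 7 runs of 5 or more, in place of 4 and 3, and the segments of those runs were not counted. In 0.5 Mb bins, 31.8% of 2L bins held no peak, against 9.09% of 1 Mb bins. Recurring distances depended on the tolerance, with 8 pairs alike within 1 bp and 62 within 20 bp. The number of pairs 6500 to 7000 bp apart was 14 from start to start and 15 with peaks within 1000 bp merged.

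Settings without the first 1 Mb, with each group counted as 1, and those on the pairs were chosen after seeing the data. No paired analysis was possible because replicates were merged into 1 list. Without depth, replicate spread or the release 5 arm lengths, differences in density carry counting error only.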

Other observations

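Scores repeated among the members: 321 peaks shared 233 score values. The most frequent, 8.53, belonged to 11 peaks, and 10.37 and 11.13 to 7 each. Over 1 Mb bins holding at least 5 peaks, Spearman's rho between the number of peaks and their median score was -0.371 on 2L (8 bins) and 0.179 on 3L (13 bins), given as a description of bins from the same libraries. On 3L the bin from 22 to 23 Mb held 17 peaks with a median score of 15.4, whereas the 13 peaks of the bin from 19 to 20 Mb had a median of 9.26, on either side of the arm's 12.0.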
